A study of Mus musculus with 48 samples.

Results

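The response of female and male mouse liver to a high dose of perfluorooctane sulfonate (PFOS), a persistent fluorinated surfactant, was compared gene by gene. The mice were those given 0 or 10 mg/kg/day, which are 32 of the 48 mice of the study, 16 of each sex. Only genes on chromosomes 1 to 19 were counted, though genes of the sex chromosomes entered the fit and the p-value adjustment. Of 40847 genes in the joined count tables, 37500 lie on these chromosomes and 12569 had enough counts to be tested. For each gene the quantity tested was the log2 change from 0-PFOS to 10-PFOS in females minus the same change in males, called the sex by dose interaction here. A positive interaction means that the response was higher in females (a larger rise or a smaller fall), and a negative one that it was higher in males.

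The study dosed mice by oral gavage for 21 days with PFOS in water containing Tween 20, and measured poly-A RNA from whole liver by sequencing. The 32 mice form 8 groups of 4, 1 for each sex at each dose (0-PFOS or 10-PFOS) in each of 2 genotypes, Cyp2b-null and hCYP2B6-Tg. The other 16 mice received 1 mg/kg/day and were used here only to classify genes by sex and for a side-by-side comparison. All mice were 10 to 12 weeks old at the start, on a C57Bl/6J background, and ate a normal diet with 18% of its calories from fat. Every mouse, untreated controls included, carries the CRISPR/Cas9 deletion of the Cyp2b9, Cyp2b10 and Cyp2b13 genes, and hCYP2B6-Tg mice carry in addition a human transgene with CYP2B6, CYP2A13 and CYP2F1. No group therefore represents a wild-type liver, and whole liver holds several cell types: in bulk RNA, fewer cells of a type and less RNA per cell cannot be told apart.

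Liver is among the most sexually dimorphic tissues of the mouse. In males the pituitary releases growth hormone in separated pulses and in females nearly continuously, and the transcription factor STAT5b carries this difference to the genome, together with the male-enriched repressor BCL6 and the female-enriched factors CUX2 and TRIM24. Its readouts include male-biased genes such as the major urinary proteins, Cyp4a12 and Hsd3b5, and female-biased genes such as Cux2 and sulfotransferases. PFOS is known to activate the nuclear receptor PPARalpha, which drives fatty acid oxidation, and the xenobiotic receptors CAR and PXR, which drive Cyp2b, Cyp2c and Cyp3a genes.

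Library totals ran from 44416597 to 82615862 counts, with a median of 56099206.5 over the 32 mice, so 3 counts amount to 0.0363 to 0.0675 CPM (counts per 1e+06 counts of a library, after normalisation between libraries). Female and male mice were deposited in separate count tables, so table and sex cannot be told apart for a level. A constant offset between the tables cancels in the interaction. An offset that differs by dose would not cancel, and was not tested. Median totals were 55011991.5 and 49269226.5 counts in untreated and 10-PFOS females, and 68648359.5 and 49801161.5 in males. Normalisation factors ran from 0.7225 to 0.9644 in untreated males and from 0.9629 to 1.219 in the other mice. The deleted genes were not silent in the tables: Cyp2b10 had a median of 0.423 CPM in untreated females and 1.17 CPM in untreated males, and 13.1 and 16.4 CPM at 10-PFOS. The origin of these reads was not tested. The summed level of 14 hepatocyte markers fell from medians of 123691 and 116639 CPM in untreated females and males to 60909.9 and 63779.7 CPM at 10-PFOS, in both sexes without overlap. One untreated male, Cyp2b-null replicate 3, stood apart with a high acute-phase level and low male-biased genes, and the results that rest on it are given with and without it.

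The overall response to 10-PFOS was of similar breadth in each sex. In females 648 genes rose (5.16% of the genes tested) and 784 fell (6.24%) at an adjusted p under 0.05 and more than 1 on the log2 scale, and in males 705 rose (5.61%) and 684 fell (5.44%), by edgeR's quasi-likelihood test with Benjamini-Hochberg adjustment. These responders were 11.4% of the genes in females and 11.1% in males. The response itself differed between the sexes for fewer genes. By the same criteria 117 genes (0.931% of 12569) had a higher response in females and 137 (1.09%) a higher response in males, 254 (2.02%) in all. Without the fold limit 591 (4.70%) and 459 (3.65%) passed, and 3103 genes had an unadjusted p under 0.05. The median interaction over all genes tested was 0.024, a value that the normalisation between libraries holds near 0.

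**Figure D1:**
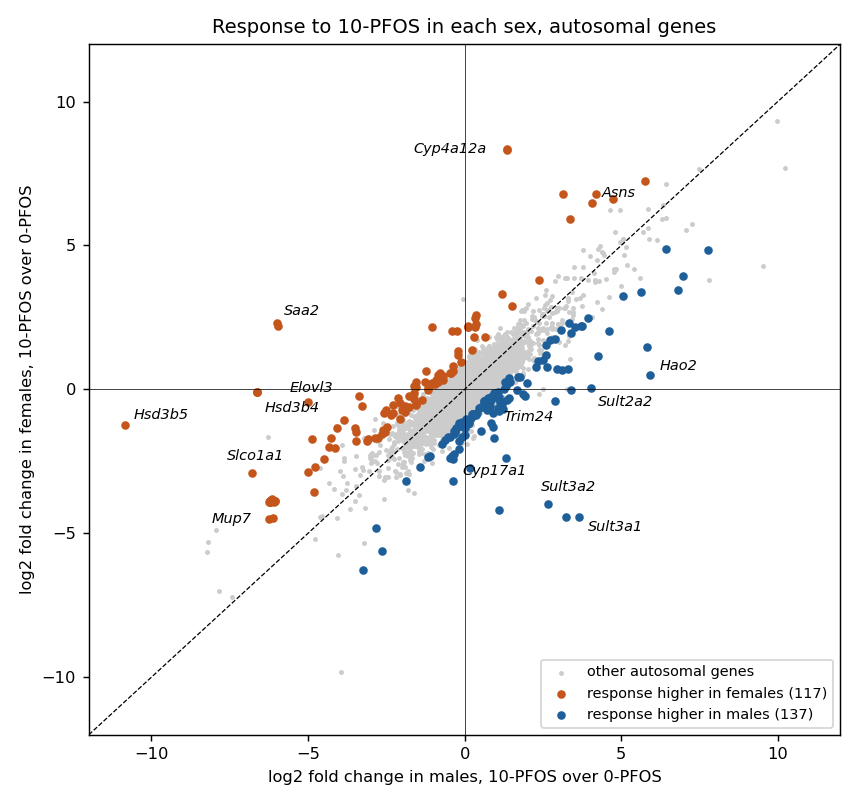
Response to 10-PFOS in males (x axis, log2 of 10-PFOS over 0-PFOS) against females (y axis, same scale), 1 point per autosomal gene tested. Orange points are the 117 genes with a higher response in females and blue points the 137 with a higher response in males, and the dashed line marks equal responses. Hsd3b5 lies far left because it fell in males, and Cyp4a12a lies high because it rose most in females.

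The sets divided by direction in a regular way. Of the 117 genes with a higher female response, 51 fell in both sexes but less in females, 32 fell in males and did not pass in females, 14 rose in females and did not pass in males, 12 rose in both and 8 rose in females while they fell in males (each sex at an adjusted p under 0.05 with no fold limit, which 31.4% of all genes tested met as a rise and 29.4% as a fall in females, and 29.5% and 28.7% in males). Of the 137 genes with a higher male response, 41 rose in males and did not pass in females, 37 fell in females and did not pass in males, 29 rose in both, 16 fell in both and 14 fell in females while they rose in males. Most of the higher female responses were thus falls that were shallower or did not pass in females. No class held most of the higher male responses, the largest being the 41 that rose in males and did not pass in females.

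Among genes with a higher female response, most of the leading members were male-biased genes of the untreated liver, with Saa1 and Saa2 as exceptions described separately. Hsd3b5, which encodes a male-enriched 3-ketosteroid reductase, lay between 1.99 and 149.6 CPM in untreated males with a median of 58.7, and between 0 and 0.128 CPM in males at 10-PFOS, where 5 of 8 mice had no count. In females it lay between 0 and 0.663 CPM untreated and between 0 and 0.174 CPM at 10-PFOS. The male levels did not overlap between doses, and treated males lay within the range of the females. The interaction was 9.62 (SE 1.97, adjusted p = 0.002), a fitted value that depends on counts of 0 to 3 in 6 of 8 treated males, 3 of 8 untreated females and 4 of 8 treated females. Hsd3b4, a second enzyme of this family, showed the same form: medians of 38.3 CPM in untreated and 0.397 CPM in treated males, against 0.249 and 0.264 CPM in females (interaction 6.54, SE 0.84, adjusted p = 3.3e-06). Without the untreated male that stood apart, and without each other mouse in turn, the Hsd3b5 interaction stayed between 9.13 and 10.30 and that of Hsd3b4 between 6.26 and 6.80.

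Elovl3, a fatty acid elongase, had 183, 288 and 391 CPM as lowest, median and highest values in untreated males and 3.02, 8.78 and 12.7 CPM in treated males. Females were low at both doses, at 1.12 to 7.47 CPM untreated and 0.954 to 5.42 CPM treated. The gene thus fell 32.1-fold in males to a level that overlapped that of females, with an interaction of 4.55 (SE 0.47, adjusted p = 4.6e-08). Slco1a1, the hepatic organic anion uptake carrier, fell in both sexes, from a median of 223 CPM (86.6 to 319) to 1.63 CPM (1.30 to 3.43) in males and from 10.0 CPM (3.0 to 99.6) to 2.75 CPM (1.97 to 4.14) in females. The fall was deeper in males, by 3.89 on the log2 scale (SE 0.63, adjusted p = 0.00012). Treated mice of both sexes ended in overlapping ranges of a few CPM.

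The 250 bases before the Slco1a1 start are shown because this carrier fell in both sexes and its promoter holds the hexamer AGGTCA, which nuclear receptors bind, at 2 positions (either strand), marked in capitals (RefSeq, GRCm38.p6, chr6:141946963-141947212, minus strand).
Slco1a1: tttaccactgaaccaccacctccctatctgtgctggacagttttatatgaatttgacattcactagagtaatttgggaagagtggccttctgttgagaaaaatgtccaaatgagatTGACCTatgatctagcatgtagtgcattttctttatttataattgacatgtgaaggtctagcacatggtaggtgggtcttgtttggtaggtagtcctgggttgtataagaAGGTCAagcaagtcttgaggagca

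The major urinary proteins, lipocalins that carry pheromones in male urine, behaved as a block. All 22 genes and pseudogenes of the family that were tested fell in both sexes, and all 22 fell less in females (adjusted p under 0.05 without a fold limit, which 4.70% of all genes met in this direction), with median log2 changes of -3.88 in females and -6.18 in males. A fall passed for 29.4% of all genes in females and 28.7% in males. Mup7 ran from 8752 to 24236 CPM in untreated males and from 106 to 400.3 CPM in treated males. In females it ran from 614 to 6708 CPM untreated and from 49.6 to 403 CPM treated, so that treated mice of both sexes overlapped (interaction 2.34, SE 0.52, adjusted p = 0.0047). Mup20, known as darcin, had medians of 9343 and 465 CPM in untreated and treated males and of 702 and 145 CPM in females. The members are near-identical and share reads, so their values are not independent, and the pseudogenes Mup-ps12, Mup-ps15 and Mup-ps16 (interactions of 2.82, 3.15 and 2.56) are named with the family only.

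Cyp4a12a took the opposite course. It encodes the male-biased arachidonic acid omega-hydroxylase of mouse liver and kidney, and its near-identical neighbour Cyp4a12b is counted with it. In untreated females the gene had 1.03, 2.34 and 3.33 CPM (lowest, median, highest) and in treated females 452, 789 and 869 CPM. In males it had 246, 389 and 459.8 CPM untreated and 807, 991 and 1079 CPM treated. The fitted rise was 326-fold in females and 2.55-fold in males, and treated females reached the range of treated males, whereas untreated mice did not overlap between the sexes. The interaction was 7.0 (SE 0.25, adjusted p = 2.4e-20) for Cyp4a12a and 6.96 for Cyp4a12b. The lowest treated female, Cyp2b-null replicate 4, was still far above every untreated female.

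Gstp1, a pi-class glutathione S-transferase that is male-biased in mouse liver, followed a similar pattern at a smaller size. Untreated females had 111 to 215 CPM and treated females 502 to 852 CPM, while males had 659 to 1576 CPM untreated and 839.9 to 1213 CPM treated. The gene rose in females alone, with an interaction of 2.07 (SE 0.21, adjusted p = 3e-08), and its near-identical copies Gstp2 and Gstp-ps each gave 2.05. Treh (trehalase) and Asns (asparagine synthetase) rose in both sexes but more in females, Treh by 5.94 against 3.36 on the log2 scale and Asns by 6.49 against 4.08. For both, the untreated levels were lower in females (medians 0.0678 and 0.134 CPM) than in males (1.02 and 1.05 CPM), and the treated levels overlapped.

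Saa1 and Saa2, which encode the acute-phase serum amyloid A proteins, had large interactions (8.14 and 8.32, adjusted p = 0.0018 and 0.0017) whose size leaned on 2 mice. With any 1 mouse left out both still passed, at 3.98 to 8.83 for Saa1 and 4.05 to 8.98 for Saa2. Saa1 reached 1122 CPM in 1 treated female, hCYP2B6-Tg replicate 2, while the next highest treated female had 12.3 CPM. It reached 1685 CPM in the untreated Cyp2b-null male replicate 3, with 441 CPM in the next highest untreated male. Without these 2 mice, a choice made after seeing the data, the interactions were 2.64 and 2.61 with adjusted p-values of 0.053 and 0.054. Plin4, a lipid droplet coat protein, likewise went from 2.72 (adjusted p = 0.015) to 1.55 (adjusted p = 0.088) without them.

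**Figure D2:**
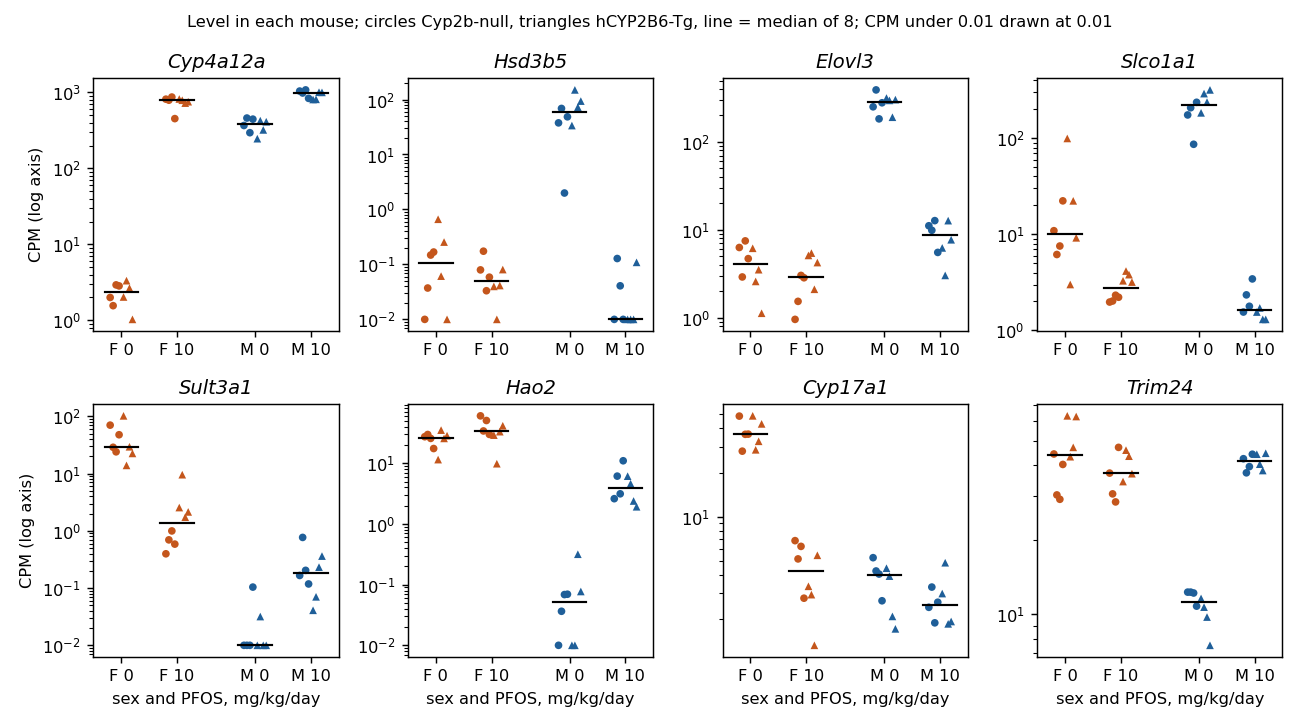
Level of 8 genes in each of the 32 mice, in CPM on a log axis; circles are Cyp2b-null mice, triangles hCYP2B6-Tg mice, the line is the median of 8 mice and values under 0.01 are drawn at 0.01. Elovl3 and Slco1a1 of treated males lie in or near the female range, treated females reach the male range of Cyp4a12a, and Trim24 of treated males reaches the female range.

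Among genes with a higher male response, the leading members were female-biased. Sult3a1, a cytosolic sulfotransferase, had 13.9, 29.1 and 102 CPM in untreated females and 0.397, 1.36 and 9.56 CPM in treated females. In males it was absent or nearly so, at 0 to 0.104 CPM untreated, with no count in 6 of 8 mice, and at 0.0409 to 0.767 CPM treated. It therefore fell in females without overlap between doses, while male levels lay close to the detection floor, and the interaction of -8.08 (SE 1.27, adjusted p = 9.5e-05) depends on those few counts. Its neighbour Sult3a2 fell in females from a median of 6.28 to 0.285 CPM (interaction -6.64, adjusted p = 0.0051).

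The Sult3a1 promoter is shown because, of the 12 named genes with a higher male response that matched a promoter, it was the one with the palindrome TTCNNNGAA, the form of site that STAT5 binds, marked in capitals (RefSeq, GRCm38.p6, chr10:33857472-33857721, plus strand).
Sult3a1: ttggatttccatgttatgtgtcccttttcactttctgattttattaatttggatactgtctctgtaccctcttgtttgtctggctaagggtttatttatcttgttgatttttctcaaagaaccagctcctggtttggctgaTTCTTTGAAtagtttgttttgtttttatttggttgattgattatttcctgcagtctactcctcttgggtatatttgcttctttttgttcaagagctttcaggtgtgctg

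Hao2, a peroxisomal hydroxyacid oxidase, rose in males instead. Females had 11.5 to 35.2 CPM untreated and 9.84 to 60.5 CPM treated, a wide overlap. Males had at most 0.317 CPM untreated, and 1.92, 3.88 and 11 CPM treated. Every treated male lay above every untreated male, and the highest treated male lay above the lowest treated female (interaction -5.44, SE 0.63, adjusted p = 5.2e-07). The Sult2a genes encode hydroxysteroid sulfotransferases of the female liver. Sult2a2 had medians of 211 CPM in untreated and 247 CPM in treated females, with overlapping ranges, and at most 0.0729 CPM in untreated and 0.598 CPM in treated males. The interactions of Sult2a2 (-3.98, adjusted p = 0.017) and Sult2a5 (-3.41, adjusted p = 0.048) rest on those few male counts, and that of Sult2a5 passed in only 10 of the 32 fits that left 1 mouse out.

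Trim24, a female-enriched transcriptional cofactor, had a level that treated males brought up to that of females. Males had 7.51, 11.2 and 12.3 CPM untreated and 37.2, 41.3 and 44.6 CPM treated, a rise of 3.77-fold. Females had 43.7 CPM untreated and 37.0 CPM treated as medians, with overlapping ranges (interaction -2.15, SE 0.18, adjusted p = 8.7e-10). Nt5e, the ecto-5'-nucleotidase CD73, rose 3.63-fold in males, from a median of 7.56 to 25 CPM, and did not pass in females, with medians of 51.0 and 43.1 CPM (interaction -2.02, SE 0.23, adjusted p = 2.5e-07). Acot3, a peroxisomal acyl-CoA thioesterase, rose 9.83-fold in males, from 5.74 to 26.8 CPM to 95.7 to 253 CPM, and 1.62-fold in females, from 68.1 to 223 CPM to 137 to 239.6 CPM. Treated mice of both sexes overlapped for all 3 genes.

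A further group fell more in females than in males. Cyp17a1, the steroid 17-alpha-hydroxylase, had 28.0, 36.5 and 48.8 CPM in untreated females and 1.32, 4.24 and 6.85 CPM in treated females, with 1.71 to 5.24 CPM in untreated and 1.85 to 4.84 CPM in treated males (interaction -2.81, SE 0.36, adjusted p = 2.9e-06). Cyp2c69, a female-biased P450, fell from 927 to 2046 CPM to 218 to 269.9 CPM in females, while males lay between 225 and 333 CPM untreated and 195 and 253 CPM treated (interaction -2.07, SE 0.17, adjusted p = 5.6e-10). Its near relatives Cyp2c40, Cyp2c67 and Cyp2c68 gave -1.91, -1.89 and -1.91, but share reads with it. Ntrk2, the BDNF receptor TrkB, fell in both sexes, from a median of 11.3 to 0.114 CPM in females and from 1.01 to 0.143 CPM in males (interaction -3.01, SE 0.75, adjusted p = 0.01). Cux2, the female-enriched repressor, ran from 1.97 to 47.5 CPM in untreated and from 0.266 to 18.6 CPM in treated females, and from 0.109 to 0.549 CPM and from 0.0817 to 1.66 CPM in males. It was still called higher in treated females than in treated males, and its interaction of -3.73 (adjusted p = 0.039) passed in 19 of the 32 fits that left 1 mouse out.

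Akr1b7, an aldose reductase-like enzyme and a known target of CAR and PXR, rose in both sexes to about the same level. It had 0.632, 1.74 and 2.94 CPM in untreated females and 9.50, 20.1 and 26.6 CPM in treated females, against 0.127, 0.298 and 0.651 CPM and 11.3, 16 and 18.8 CPM in males. The rise was 10.5-fold in females and 49.9-fold in males (interaction -2.25, SE 0.37, adjusted p = 0.00014), and treated mice overlapped between the sexes. Its promoter is shown because this gene belongs to the xenobiotic response and holds AGGTCA (minus strand, capitals) near the far end of the window (RefSeq, GRCm38.p6, chr6:34412112-34412361, plus strand).
Akr1b7: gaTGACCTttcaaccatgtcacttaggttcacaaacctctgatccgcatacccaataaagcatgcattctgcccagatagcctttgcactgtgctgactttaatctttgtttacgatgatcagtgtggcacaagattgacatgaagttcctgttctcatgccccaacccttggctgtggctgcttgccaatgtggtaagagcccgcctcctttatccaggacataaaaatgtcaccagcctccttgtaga

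These letters were common in promoters at large. TTCNNNGAA, searched in the 250 bases before each start, was held by 8.13% of 27025 genes with a RefSeq promoter (GRCm38.p6), by 4.55% of the 88 matched genes with a higher female response and by 10.1% of the 99 with a higher male response. AGGTCA, searched on both strands, was held by 15.8% of all genes, by 26.1% and by 18.2% of these sets. Of the 15 named genes of each direction 12 matched a promoter, and AGGTCA was present in 7 with a higher female response, of which 3 are Mup pseudogenes and 2 are Saa1 and Saa2, and in 2 with a higher male response. A match describes letters and not a bound site, and family members share sequence.

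The 22 genes that passed in both sexes in opposite directions included 14 that met the criteria for naming. Ccnd1, the G1 cyclin D1, had 54.4 to 85.7 CPM in untreated females and 17.9 to 59.9 CPM treated, but 6.62 to 14.1 CPM in untreated and 14.4 to 35.0 CPM in treated males (-0.67 in females, 1.21 in males, interaction -1.88, adjusted p = 1.6e-05). Fmo2, Nipal1 (a magnesium transporter), Lratd2, Samd9l and Lrat (retinol esterification) also fell in females and rose in males, with interactions from -2.21 to -1.14. The cholesterol synthesis enzymes Msmo1 and Mvk had the same signs (-1.74 and -1.43, adjusted p = 0.031 and 0.022). Sult3a1 belongs here by its fitted signs as well.

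Cyp2d9, the male-biased testosterone 16-alpha-hydroxylase, moved the other way. It rose in females from 333, 369 and 412 CPM to 414, 576 and 835 CPM and fell in males from 1082 to 1560.2 CPM to 848 to 1209 CPM (interaction 1.01, SE 0.14, adjusted p = 1.4e-05). The doses did not overlap in females, and treated females remained below every treated male. Arsa, lysosomal arylsulfatase A, rose in females from a median of 11.7 to 16.5 CPM and fell in males from 39.0 to 22.3 CPM (interaction 1.35, adjusted p = 1.6e-05). Pim1, a kinase induced by STAT5, and Etfbkmt, a mitochondrial methyltransferase, had the same signs at interactions of 1.15 and 1.05.

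The size of the sex difference was next set beside dose. In untreated mice 595 autosomal genes (4.73% of those tested) differed between females and males, 435 of them higher in females (3.46%) and 160 higher in males (1.27%). At 10-PFOS 75 genes (0.597%) differed, 48 higher in females (0.382%) and 27 in males (0.215%), and 2739 genes had an unadjusted p under 0.05. The 56 genes called at both doses were 9.41% of the first list and 74.7% of the second, and 53 of them kept their direction. The number of genes does not test the change itself, which the interaction does.

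Sex bias was also taken from the 16 mice at 1-PFOS, none of which enter the interaction, so that the classes were independent of it. Of 12227 genes tested at 1-PFOS 201 (1.64%) were higher in females and 161 (1.32%) in males, 2.96% together. Of the 12141 genes tested in both sets, 190 were higher in females and 157 higher in males at 1-PFOS. Among the 190 female-biased genes 58 (30.5%) had a higher 10-PFOS response in males and 0 a higher response in females. Among the 157 male-biased genes 78 (49.7%) had a higher response in females and 0 a higher response in males. Over all 12141 genes the shares were 1.06% with a higher male and 0.890% with a higher female response. Male-biased genes had median log2 changes of -0.27 in females and -1.10 in males, and female-biased genes -0.43 in females and 0.27 in males.

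In untreated mice the median absolute sex difference was 1.31 (log2) for the female-biased and 1.68 for the male-biased class, and at 10-PFOS it was 0.44 and 0.54. The direction was mostly retained: 171 of the 190 and 138 of the 157 genes had the same sign at 10-PFOS as at 1-PFOS. Over all 12141 genes 8238 had the same sign. The other 11794 genes did not meet both criteria at 1-PFOS, an adjusted p under 0.05 and more than 1 on the log2 scale. Some had a smaller sex difference there, such as Cyp2a4 and Cyp2a5 at 0.86 and 0.85 (edgeR's quasi-likelihood test, adjusted p = 0.0059 each). Of the 11794 genes 30 (0.254%) had a higher response in females and 71 (0.602%) in males. Those with the largest interactions were Saa2, Saa1 and Plin4, followed by Msmo1 and Hmgcs1 of cholesterol synthesis and by Cyp2a4 and Cyp2a5 (-1.53 and -1.51), near-identical P450s that oxidise steroids and coumarin and rose in both sexes.

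**Figure D3:**
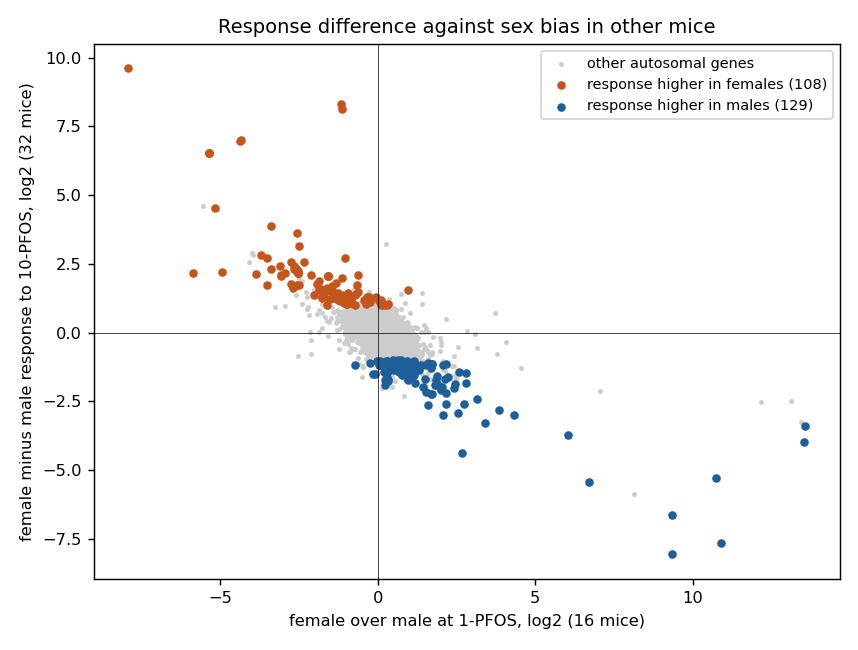
Log2 of female over male level in the 16 mice at 1-PFOS (x axis) against the female minus male response to 10-PFOS in the other 32 mice (y axis), 1 point per autosomal gene tested in both. The 108 genes with a higher female response (orange) lie mostly on the male-biased side and the 129 with a higher male response (blue) mostly on the female-biased side.

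A sum over listed genes gave each mouse 1 value. The mean log2 CPM of 32 known female-biased liver genes minus that of 30 known male-biased genes lay between 0.96 and 2.14 in untreated females and between -5.38 and -3.57 in untreated males, with medians of 1.53 and -4.64. At 1-PFOS the medians were 1.25 and -4.58. At 10-PFOS females lay between 0.62 and 1.2 and males between -1.48 and -0.58, with medians of 1.02 and -0.92. The sexes remained apart at every dose, but the gap of medians was 6.17 at 0-PFOS, 5.83 at 1-PFOS and 1.94 at 10-PFOS.

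Most of the shift came from males, and both lists fell in females. The female-biased list had medians of 6.65 and 5.42 log2 CPM in untreated and treated females, and of 3.16 and 4.07 in males. The male-biased list had medians of 5.16 and 4.52 in females, and of 7.83 and 5.10 in males. Among the 32 female-biased genes 18 had a higher response in males and 0 in females, and among the 30 male-biased genes 21 had a higher response in females and 0 in males (adjusted p under 0.05 without a fold limit, met by 3.65% and 4.70% of all genes). Leaving out any 1 mouse kept these counts between 16 and 20 and between 20 and 22.

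**Figure D4:**
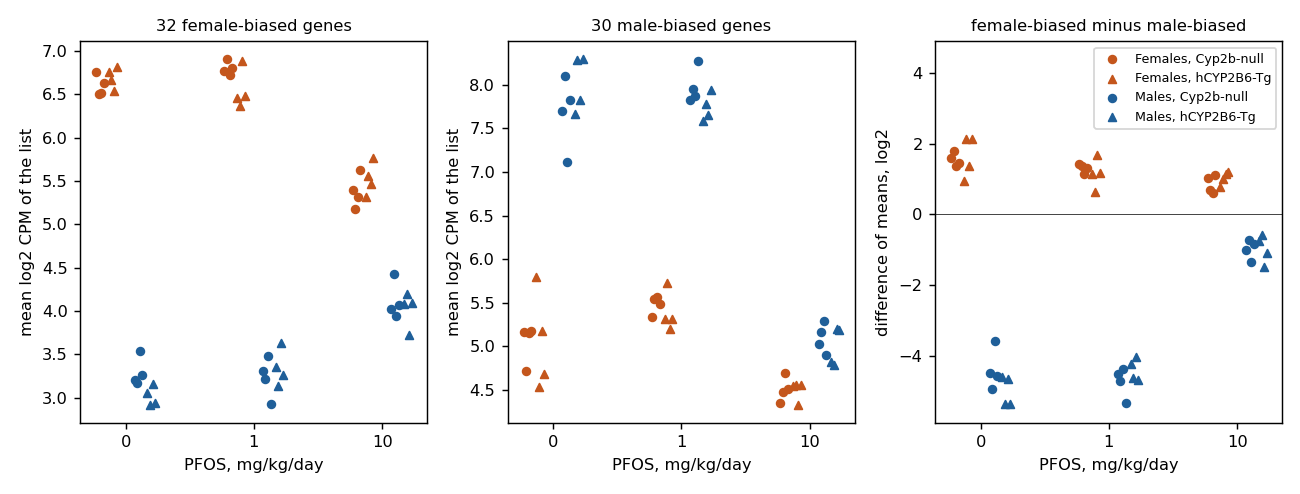
Mean log2 CPM of 32 female-biased genes (left), of 30 male-biased genes (middle) and their difference (right) in each of the 48 mice by PFOS dose; orange females, blue males, circles Cyp2b-null, triangles hCYP2B6-Tg. The sexes are furthest apart at 0 and 1 mg/kg/day and the difference in males lies nearest 0 at 10 mg/kg/day.

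Among genes of the growth hormone axis, Ghr, Stat5b and Igf1 fell in both sexes. Their part in the responses of the sex-biased genes was not tested. Ghr, the growth hormone receptor, had medians of 333 and 122 CPM in untreated and treated females and of 367 and 136 CPM in males (-1.47 and -1.38 on the log2 scale). Stat5b had medians of 61.3 and 30.2 CPM in females and 57.1 and 28.6 CPM in males, and Igf1, the main circulating product of growth hormone action, fell from 469 to 144 CPM in females and from 352 to 144 CPM in males. The interactions were -0.085, -0.010 and -0.33 with adjusted p-values of 0.66, 0.97 and 0.083. Of 18 tested genes of this axis, 13 fell in females and 14 in males, beside 29.4% and 28.7% of all genes. Bcl6, the male-enriched repressor, spread widely within groups (3.46 to 46.7 CPM in untreated males), and its interaction of 1.06 (SE 0.78) did not pass.

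Of 17 sex hormone and related receptors and cofactors 1 had a higher response in females and 3 in males, beside 4.70% and 3.65% of all genes. Prlr, the prolactin receptor, had 180.3, 228 and 336 CPM in untreated females and 56.7, 70.5 and 79.2 CPM in treated females, against 42.5 to 72.9 CPM and 48.4 to 63.9 CPM in males. The female level thus came down to the male range (interaction -1.60, SE 0.15, adjusted p = 7.9e-09). Esr1, estrogen receptor alpha, fell in females from a median of 19.9 to 11.8 CPM and stood at 6.50 and 7.75 CPM in males (interaction -1.13, SE 0.24, adjusted p = 0.0029). Ahr, the aryl hydrocarbon receptor, had an interaction of -0.74 (adjusted p = 0.0062), and Hnf4a, a hepatocyte transcription factor, one of 0.47 (adjusted p = 0.021).

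Most genes of the xenobiotic and peroxisomal responses rose in both sexes. A rise passed for 31.4% of all genes in females and 29.5% in males. All 9 Cyp3a genes rose in females and in males, with medians of 2.54 and 2.46 on the log2 scale, and none had an interaction that passed. Cyp3a11, the main PXR target, had 2334, 2944 and 3862 CPM in untreated and 16167, 18008 and 21112 CPM in treated females, and 2827, 3574 and 4720.1 CPM and 17382, 19866 and 22157 CPM in males (interaction 0.14, SE 0.13, adjusted p = 0.53). All 7 Cyp4a genes rose in both sexes, and only the near-identical Cyp4a12a and Cyp4a12b had a different response. The PPARalpha targets Cyp4a10 and Cyp4a14 gave interactions of -0.38 and -0.21 (SE 0.18 and 0.23), neither of which passed.

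Of 50 tested PPARalpha targets 43 rose in females and 43 in males, beside 31.4% and 29.5% of all genes. Their median changes were 1.14 and 1.00. The response was higher in females for 7 and in males for 6, beside 4.70% and 3.65% of all genes. Acot3, Abcd2 (a peroxisomal fatty acid importer) and Cd36 (a fatty acid translocase) were higher in males, at -2.60, -1.15 and -1.03. Of 45 CAR and PXR targets 39 rose in females and 40 in males, with 8 and 5 higher in females and males, beside the same shares of all genes. Abcc4, a sinusoidal efflux pump, rose in both sexes and more in males (4.88 and 6.42, interaction -1.54, adjusted p = 0.0026), whereas Abcg2, the canalicular breast cancer resistance protein, rose more in females (1.82 and 0.65, interaction 1.17, adjusted p = 2.4e-06). The 8 and the 7 with a higher female response each dropped as low as 3 when 1 mouse was left out, for the CAR and PXR list with FN_0 replicate 2, F2B6_0 replicate 3, F2B6_10 replicates 1 and 3, MN_10 replicate 4 or M2B6_10 replicate 3, and for the PPARalpha list with F2B6_10 replicate 1, MN_0 replicate 3 or MN_10 replicate 4 (F female, M male, N Cyp2b-null, 2B6 hCYP2B6-Tg, then dose). In all 17 and 10 mice moved these counts by more than 1.5 times.

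**Figure D5:**
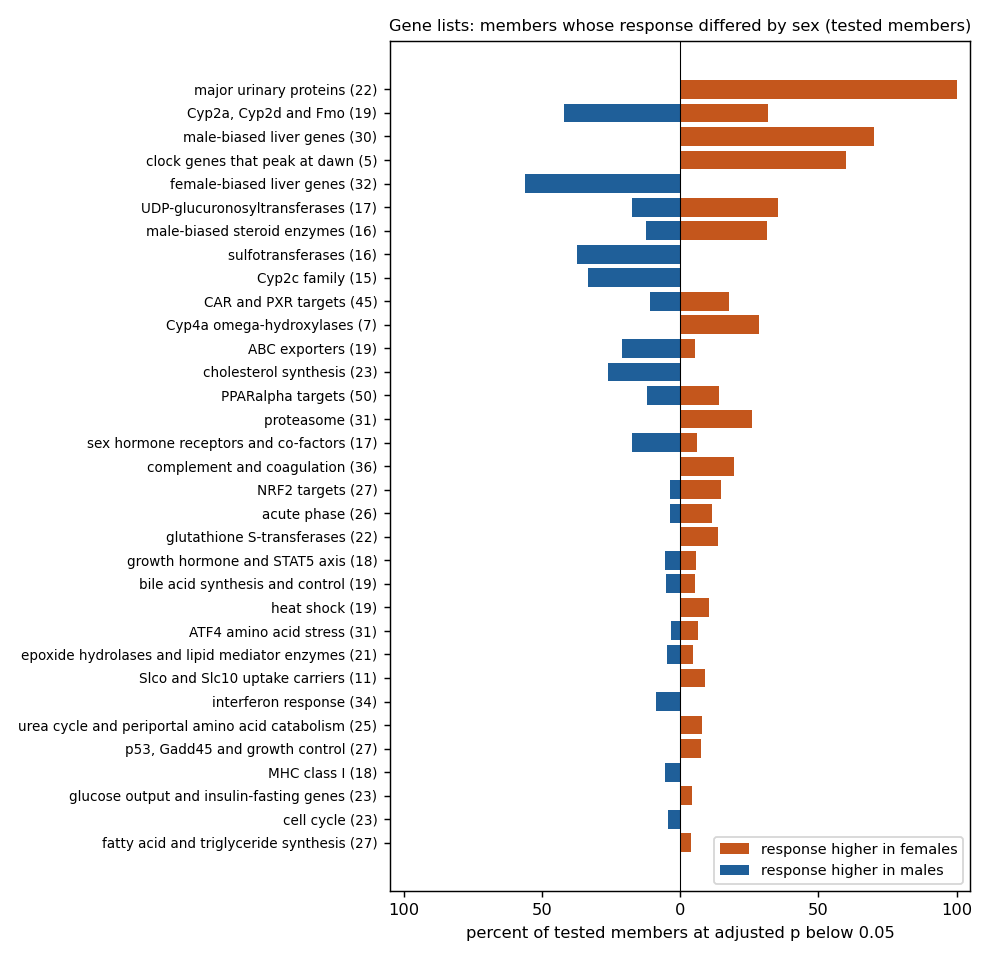
Percent of the tested members of a gene list whose 10-PFOS response differed between the sexes at an adjusted p under 0.05. Bars run to the right where it was higher in females and to the left where it was higher in males. The number of tested members is in parentheses. Lists without such a member, the Cyp3a family among them, and the lists of cell markers are not drawn. All 22 major urinary proteins lie to the right and female-biased genes and sulfotransferases to the left, beside 4.70% and 3.65% of all genes.

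Other P450 and conjugating families moved in separate directions. The counts of this paragraph stand beside 3.65% of all genes with a higher male and 4.70% with a higher female response. A rise passed for 31.4% of all genes in females and 29.5% in males. Of 16 sulfotransferases 6 had a higher response in males and 0 in females, and the 6 became 10 without hCYP2B6-Tg treated male replicate 3. Of 15 Cyp2c genes 5 had a higher response in males and 0 in females, against 9 that rose in each sex, among them Cyp2c55 and Cyp2c29 (interactions of 0.42 and 0.39, adjusted p = 0.17 and 0.059). The Cyp2a, Cyp2d and Fmo group of 19 was split, with 6 higher in females and 8 in males. Among 16 male-biased steroid enzymes 5 were higher in females and 2 in males, and Cyp7b1, the oxysterol 7-alpha-hydroxylase, fell in males from a median of 81.7 to 30.3 CPM while females stood at 12.9 and 15.5 CPM (interaction 1.71, SE 0.30, adjusted p = 0.0003).

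Of 23 tested genes of cholesterol synthesis 6 had a higher response in males, 0 in females and 17 did not pass. Such responses passed for 3.65% and 4.70% of all genes. The median changes were -0.52 in females and 0.66 in males. In females 10 fell, beside 29.4% of all genes, and in males 11 rose, beside 29.5%. Hmgcs1, which makes HMG-CoA for this pathway, ran from 132 to 1137 CPM in untreated and from 70.6 to 896 CPM in treated females, and from 168 to 628 CPM and 334 to 829 CPM in males. The ranges of the doses overlapped in each sex, and its interaction of -1.72 (SE 0.55, adjusted p = 0.046) passed in 11 of the 32 fits that left 1 mouse out. Msmo1 and Hsd17b7, later enzymes of the pathway, gave -1.74 and -0.93. The count of 6 dropped to 3 without untreated hCYP2B6-Tg female replicate 1 or treated hCYP2B6-Tg female replicate 1.

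Clock genes that peak near dawn moved beside these. Cry1, a clock repressor, fell from a median of 8.94 to 2.24 CPM in males and from 4.73 to 2.57 CPM in females, and Nfil3, a repressor of D-box genes, from 25.3 to 4.63 CPM and from 16.3 to 5.07 CPM. Of 5 such genes 3 had a higher response in females, 1 without any of 4 mice (F2B6_0 replicate 3, F2B6_10 replicate 2, MN_10 replicate 3 or M2B6_10 replicate 1), and their summed level had medians of 77.4 and 50 CPM in females and 91.9 and 37.9 CPM in males. None of 12 clock genes that peak by day passed, with summed medians of 249 and 315 CPM in females and 249 and 308 CPM in males. Over all genes 4.70% had a higher response in females and 3.65% in males. The time of day at which livers were taken is not given for each mouse, and its part in the results was not tested.

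Terminal complement genes, male-biased in mouse liver, fell more in males. C6 had 101 to 182 CPM in untreated and 13.7 to 38.3 CPM in treated males, and 9.99 to 17.1 CPM and 5.41 to 8.76 CPM in females, so that both doses stayed apart between the sexes (interaction 1.74, SE 0.20, adjusted p = 5.2e-07). C8a, C9 and C8b gave 1.44, 1.25 and 1.07, and treated mice overlapped between the sexes for each. Of 36 tested complement and coagulation genes 7 had a higher response in females and 0 in males, beside 4.70% and 3.65% of all genes. A fall passed for 32 of them in each sex, beside 29.4% of all genes in females and 28.7% in males. Proteasome genes rose in all 31 cases in each sex, beside 31.4% of all genes in females and 29.5% in males. The rise was larger in females for 8 proteasome genes, with Psmd11 and Psmb5 at 0.46 and 0.42 above the male response. The 8 became 4 or 5 without F2B6_0 replicate 3 or 4, F2B6_10 replicate 1 or M2B6_10 replicate 2.

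Markers of some cell types, hepatocytes included, had a response that differed by sex. Over all genes 3.65% had a higher response in males and 4.70% in females. Of 14 hepatocyte markers 1 had a higher response in males (Ahsg at -0.55) and 3 in females, among them Hnf4a at 0.47. The 1 became 2 without F2B6_10 replicate 2 or MN_0 replicate 2. Of 14 endothelial markers 5 had a higher response in males and 0 in females, among them Eng (endoglin) at -0.57 and Cdh5 (VE-cadherin) at -0.53. Of 14 stellate cell markers 5 had a higher response in males as well, with Dcn (decorin) at -0.57 and Lrat at -1.14. The summed endothelial level had medians of 432 and 366 CPM in untreated and treated females and 303 and 330.4 CPM in males, with ranges of 365 to 489.7, 289.6 to 399, 248 to 348 and 257 to 363 CPM. The stellate sum had medians of 338, 279, 207 and 243 CPM in the same order. The 5 endothelial markers became 3 without M2B6_0 replicate 2 and 8 without MN_10 replicate 2. Kupffer cell markers fell in both sexes, from 418 to 198 CPM in females and from 211 to 137 CPM in males as medians of their sum. All 13 tested fell in females and 11 in males, beside 29.4% and 28.7% of all genes. An interaction passed for 1 of these 13 (0 to 4 with 1 mouse left out, the 4 without M2B6_0 replicate 3), for 0 of 4 cholangiocyte and for 0 of 3 B and plasma cell markers. The part of these cell types in the other results was not tested.

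Interferon-induced genes fell in both sexes (33 of 34 tested in females, 30 in males, beside 29.4% and 28.7% of all genes). A higher response in males passed for 3 of them, beside 3.65% of all genes. Oas3, an antiviral RNA sensor, fell from a median of 2.44 to 0.612 CPM in females and stood at 0.729 and 0.746 CPM in males (interaction -1.60, SE 0.31, adjusted p = 0.0011). Gbp7, a guanylate-binding protein, fell from 21.6 to 3.28 CPM in females and from 6.89 to 3.46 CPM in males. Untreated females had the higher level of both genes without overlap with untreated males, and treated mice overlapped. The count of 3 became 7 without treated Cyp2b-null female replicate 2.

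The genotypes, which share no mice, were then set side by side as contrasts of 1 model over the 32 mice, with a common estimate of the spread. The contrast within Cyp2b-null mice passed for 87 genes (0.692% of those tested), 44 higher in females (0.350%) and 43 in males (0.342%). The contrast within hCYP2B6-Tg mice passed for 373 (2.97%), 148 higher in females (1.18%) and 225 in males (1.79%). Of the 87 genes, 84 had the same sign in hCYP2B6-Tg mice and 55 (63.2%) passed there too, with a median absolute interaction of 1.98 in the first and 1.60 in the second. Of the 373, 310 had the same sign in Cyp2b-null mice and the same 55 (14.7%) passed, with medians of 1.52 and 0.60. A test of the difference between genotypes called 0 genes (0%) by edgeR's quasi-likelihood test, with 1198 at an unadjusted p under 0.05, and 11 higher and 15 lower in hCYP2B6-Tg mice by the likelihood ratio test. Without treated Cyp2b-null female replicate 4 the quasi-likelihood test called 19 and 17, without treated hCYP2B6-Tg female replicate 4 it called 6 and 1, and without any other mouse at most 3 and 1.

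At 1-PFOS fewer genes responded than at 10-PFOS, and few responses differed between the sexes. Of 12655 genes 97 rose and 37 fell in females, and 146 rose and 55 fell in males. These passed edgeR's quasi-likelihood test at an adjusted p under 0.05 and more than 1 on the log2 scale. By the same test 8 genes (0.0632% of 12655) had a higher response in females and 9 (0.0711%) in males, 0.134% together. An unadjusted p under 0.05 for this difference was met by 1301 genes. The 8 fell to 3 without hCYP2B6-Tg male replicate 2 at 1-PFOS, and the 9 fell to 4 without FN_1 replicate 2, MN_0 replicate 3 or M2B6_0 replicate 1 or 4. These fits share the untreated mice with the 10-PFOS comparison, so the values are given side by side only. Cyp4a12a had 30.8, 46.1 and 125 CPM in females and 994, 1115 and 1365 CPM in males at 1-PFOS, a log2 change of 4.64 in females and 1.68 in males (interaction 2.96 at 1-PFOS and 7.0 at 10-PFOS). Gstp1 had an interaction of 1.04 at 1-PFOS and 2.07 at 10-PFOS. Zbtb16, a zinc finger factor, gave 2.51 and 1.43 (adjusted p = 0.026 and 0.073), and Fbp2, the muscle fructose bisphosphatase, -4.20 and -2.91 from untreated levels of 0 to 0.260 CPM.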

How the data were processed

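Liver poly-A RNA of 48 mice was sequenced as paired ends. According to the study's methods and the labels, reads were checked with FastQC, trimmed with Trim Galore, aligned with RSEM to GRCm39 and counted with featureCounts. Versions and options: not given in the sources used here. Raw counts per gene, with no normalization, were deposited by the authors in 2 tables, for females and for males. Of counts above 0, 91.1% (females) and 91.2% (males) are even numbers, so mates of a pair may have been counted separately and the depth in fragments would be lower. Of the rows of either table, 25 are broken across lines, with 0.0432% and 0.0281% of counts, and were left out. No counts were read for 6 very long genes. The other deposited tables hold the authors' comparisons, with fold changes and p-values, and 64 per-sample columns in 8 files; none of these were used.

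Tables were joined by symbol. Chromosomes came from RefSeq annotation of GRCm38.p6, which 39357 genes matched by symbol and 10 by synonym; no coordinate of the tables was used. Groups follow the labels. Genes over 1 CPM in at least 3 of the 4 mice of any of the 8 groups entered (13177, of which 12569 autosomal). TMM normalization and edgeR's quasi-likelihood test (edgeR 4.0.16, limma 3.58.1, R 4.3.3) were run on sex by dose with genotype as a blocking term, over the 32 mice. Benjamini-Hochberg adjustment was over all 13177 genes, sex chromosomes included, and only autosomal genes were counted. Calls needed an adjusted p under 0.05 and more than 1 on the log2 scale; for gene lists and for directions within a sex the fold limit was not applied. CPM values are TMM-scaled, and the log2 CPM of list means used a prior count of 2. DESeq2 1.42.0 was an alternative, beside other normalization, filters, designs, subsets and each mouse left out. The test was checked on simulated counts for 13177 genes, where it recovered 94% of genes changed by 1.5 and 99% of those changed by 3 on the log2 scale, with 3 false calls. Each simulated gene had 1 mean in all mice, and changes were added in treated females only, to genes with a mean over 1 CPM. These rates therefore do not cover genes near 0 counts in a group or with outlying mice. No libraries of a group agreed within sampling noise (lowest chi-square per degree of freedom 36.3).

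Named genes were the 15 largest interactions of each sign reaching a group mean of 10 CPM somewhere, the same sign in both genotypes and an official name, those called in opposite directions in the sexes, and from each list described up to 4 members with the largest interactions at an adjusted p under 0.05. Genes named otherwise (such as Stat5b, Ghr, Igf1, Cyp3a11 and the genes at 1-PFOS) were chosen after their values were seen or as known references. The comparison and the lists were chosen with earlier results of these data known. Some genes that meet these criteria are not reported here.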

Additional observations from a re-analysis of the deposited data

Results flagged for a closer look

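Of 108 groups of 8 mice tested over 27 named genes, 14 held 1 mouse whose gap to the others on the log2 scale passed Dixon's limit, where chance gives about 1 in 20. The untreated Cyp2b-null male replicate 3 was low in Hsd3b5 (1.99 CPM, next 33.6), Hsd3b4 (1.95 CPM, next 21.8) and Slco1a1 (86.6 CPM, next 175). The treated hCYP2B6-Tg female replicate 2 was high in Saa1 (1122 CPM, next 12.3) and Saa2 (1083 CPM, next 11) and low in Hao2 (9.84 CPM) and Mvk (3.21 CPM). The treated Cyp2b-null female replicate 4 was low in Cyp4a12a (452 CPM, next 723) and Cyp4a12b (447 CPM, next 715). The untreated hCYP2B6-Tg female replicate 2 was high in Saa1 (102 CPM) and Saa2 (87.1 CPM), and replicate 3 of that group in Lrat (22.3 CPM). The untreated Cyp2b-null male replicate 4 had Sult3a1 at 0.104 CPM, and the treated hCYP2B6-Tg male replicate 3 had Nipal1 at 3.65 CPM (next 11.1).

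The responses of the sexes differed by the interaction test for 117 genes with a higher and 137 with a lower female response to 10-PFOS, 22 of them with opposite directions in the sexes, and for 8 and 9 genes at 1-PFOS.

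Genes on the sex chromosomes lay outside the comparison, and 3 had an interaction that passed in the same fit. Alas2 on X, the erythroid aminolevulinate synthase of heme synthesis, fell in males from a median of 50.8 to 15.2 CPM and stood at 9.62 and 9.96 CPM in females (interaction 1.66, adjusted p = 1.6e-05). Prrg1 on X gave -1.21 (adjusted p = 0.024). Uty on Y gave -1.16 (adjusted p = 0.00014), with reads in females at 1.77 and 0.987 CPM, so its female values are not expression of that gene.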

How the results depend on the processing

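With 1 mouse left out at a time, the genes with a higher female response numbered 107 to 126 and those with a higher male response 119 to 153; risers and fallers numbered 616 to 668 and 755 to 844 in females and 673 to 725 and 659 to 711 in males; the sex difference called 394 to 467 higher and 153 to 177 lower in females at 0-PFOS, 41 to 68 and 22 to 30 at 10-PFOS, and 180 to 244 and 153 to 176 at 1-PFOS. The genotype difference called 0 to 19 and 0 to 17, and the 1-PFOS interaction 3 to 9 and 4 to 12. Replicate numbers did not pair the mice (correlations of same-numbered mice from -0.271 to 0.256, 14 of 112 above 0.1), and with a replicate block the interaction called 115 and 136.

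A stricter filter on low counts called 75 and 81 interactions, 430 risers and 499 fallers in females, 460 risers in males, 204 and 100 sex differences at 0-PFOS, 22 higher at 10-PFOS and 85 higher at 1-PFOS. No filter called 1055 and 1279 in females, 1149 and 1158 in males, 263 lower at 0-PFOS, and 302 and 258 at 1-PFOS. Fits on Cyp2b-null mice alone gave 47 and 39 interactions, and 27 and 14 sex differences at 10-PFOS, which were 108 and 89 in hCYP2B6-Tg mice alone. Without a fold limit 591 and 459 interactions passed, and at an adjusted p under 0.01 the count higher in males was 76. The likelihood ratio test called 11 and 15 genotype differences and 24 genes lower at 1-PFOS. The stricter filter and the thresholds change these counts by their own construction; the cause of the others, the subsets included, was not tested. DESeq2 called 126 and 166 interactions, with 251 of the 254 genes shared, and leaving out the 2 mice with high Saa1, added after seeing the data, gave 99 and 135.

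Over 30 named genes, 1295 of 1370 values kept their call, 75 kept their direction without passing and 0 reversed. Of the 30 genes 14 kept their call in every setting. In fits on each genotype alone Hsd3b5, Asns, Mup7, Sult2a2, Sult2a5 and Cux2 passed in neither.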

Other observations

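A small set of genes stayed different between the sexes at 10-PFOS. The Sult2a genes had the widest difference, with log2 of female over male between 9.90 and 10.81, with Slc22a26, an organic anion transporter, at 3.57 and Hao2 at 2.93. On the male side Nat8, an N-acetyltransferase, stood at -2.42, C6 at -1.68, Elovl3 at -1.45 (-6.00 in untreated mice) and Mup20 at -1.45 (-3.78 untreated). Some had a small difference in untreated mice and a larger one at 10-PFOS: Grb10, an adaptor that restrains insulin and growth factor receptors, was at 0.56 and then 2.09 (adjusted p = 1.7e-09 at 10-PFOS), and Lpl, lipoprotein lipase, at 0.20 and then 1.10 (adjusted p = 0.0099). These genes were chosen after their values were seen.

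Further responses differed between the sexes in genes not described so far. Tdo2, the tryptophan-degrading dioxygenase, rose by 1.15 in females on the log2 scale, with a change of 0.27 in males that did not pass (interaction 0.88, SE 0.18, adjusted p = 0.0025). Mdm2 and Bax, targets of p53, rose in females from medians of 14.1 to 19.4 CPM and of 8.37 to 12.1 CPM and had medians of 15 and 14.9 CPM and of 11.6 and 11.9 CPM in males (interactions of 0.48 each, adjusted p = 0.0016 and 0.036). Of 27 tested p53, Gadd45 and growth control genes these 2 had a higher response in females and 0 in males. The shares over all genes were 4.70% and 3.65%. The median interaction of the list was -0.12. The 2 became 1 without any 1 of 9 mice, and the 0 became 1 or 2 without any 1 of 15. Il1rn, the interleukin 1 receptor antagonist, had an interaction of -1.84 (adjusted p = 0.00031), with 2.62 in males and 0.78 in females.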
